A study of Rattus norvegicus with 6 samples.

Results

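The genes described here are 10 genes of hepatic fatty acid synthesis, or lipogenesis: Acly, Acaca, Acacb, Fasn, Elovl6, Scd, Gpam, Thrsp, Srebf1 and Pnpla3. Their probes were found by accession, that is, every non-control probe whose RefSeq accession on the array belongs to 1 of these genes. In all, 8 of the 10 genes were found, with 14 probes, among 15284 genes and 61657 probes on the array. No probe was matched to Srebf1 or to Pnpla3, so the central transcription factor of the pathway was not analysed here. The rats were male Sprague-Dawley animals of 9 weeks, all given corn oil at 5 mL/kg/day, for 3 days in the submitters' design text but for 9 weeks in their treatment protocol. Before being killed, 3 rats were anaesthetised with isoflurane, an inhaled halogenated ether, and 3 rats with a mixture of carbon dioxide and oxygen (CO2/O2). Liver RNA of each rat was hybridised to 1 one-colour Agilent array, so n = 3 rats in each group. There was no group without anaesthesia or without corn oil, and the sources used here do not say whether the rats had been fasted.

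The liver turns surplus carbohydrate into fat along a short chain of enzymes. Citrate leaving the mitochondrion is cut to acetyl-CoA by ATP citrate lyase (Acly), carboxylated to malonyl-CoA by the acetyl-CoA carboxylases (Acaca and Acacb) and built into palmitate by fatty acid synthase (Fasn). Palmitate is then lengthened by Elovl6, desaturated by stearoyl-CoA desaturase (Scd) and esterified to glycerol 3-phosphate by the acyltransferase Gpam. In the fed state insulin, through SREBP-1c, the product of Srebf1, and glucose, through the factor ChREBP (gene Mlxipl), raise transcription of these genes together, and fasting lowers it.

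RefSeq promoter sequences on the GRCr8 rat assembly were matched to 7 of the 10 genes, 5 of them measured on the arrays. The 250 bases before the annotated transcription start are given for Acly and Scd, whose signals moved together from rat to rat, and for Gpam and Thrsp, which ranked the rats otherwise. Gpam correlated at r = 0.56 with Scd and 0.29 with Acly, and Thrsp at 0.092 and -0.04. Each sequence is written 5′ to 3′ on the gene's strand, which is the minus strand for all 4. They lie at chr10:85963632-85963881 (Acly), chr1:253231732-253231981 (Scd), chr1:264175912-264176161 (Gpam) and chr1:161138965-161139214 (Thrsp). Capitals mark matches, on either strand, to CCAAT, the box bound by NF-Y, or to GGGCGG, the box bound by Sp1; neither motif shares letters with the other here.
Acly: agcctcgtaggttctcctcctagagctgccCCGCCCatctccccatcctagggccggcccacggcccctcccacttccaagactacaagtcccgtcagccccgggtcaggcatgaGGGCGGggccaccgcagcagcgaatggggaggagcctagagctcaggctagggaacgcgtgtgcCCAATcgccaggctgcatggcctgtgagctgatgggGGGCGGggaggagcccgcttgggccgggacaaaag
Scd: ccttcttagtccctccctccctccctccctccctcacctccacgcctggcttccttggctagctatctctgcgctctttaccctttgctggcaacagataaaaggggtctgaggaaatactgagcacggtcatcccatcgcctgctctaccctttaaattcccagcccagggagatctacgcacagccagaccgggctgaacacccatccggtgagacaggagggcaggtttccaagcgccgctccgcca
Gpam: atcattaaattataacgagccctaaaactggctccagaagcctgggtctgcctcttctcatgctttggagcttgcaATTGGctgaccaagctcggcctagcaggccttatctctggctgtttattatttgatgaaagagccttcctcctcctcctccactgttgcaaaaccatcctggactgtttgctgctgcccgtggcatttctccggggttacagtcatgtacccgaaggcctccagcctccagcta
Thrsp: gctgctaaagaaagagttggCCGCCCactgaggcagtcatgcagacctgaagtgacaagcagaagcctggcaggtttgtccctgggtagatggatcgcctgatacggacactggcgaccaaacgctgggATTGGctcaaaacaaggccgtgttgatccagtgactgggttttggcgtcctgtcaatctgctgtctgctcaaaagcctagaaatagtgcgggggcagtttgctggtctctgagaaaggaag
In the Acly window CCAAT lay 71 bases before the start and GGGCGG lay 220, 135 and 35 bases before it. The Thrsp window had CCAAT at 121 bases and GGGCGG at 230 bases before the start, and the Gpam window had CCAAT at 174 bases. None of the 4 motifs searched was found in the Scd window. The other motifs searched were the E-box CACGTG and the sterol regulatory element TCACNCCAC, and neither was found in these 4 windows. Among 33469 rat promoters of the same length, 34.0% held CCAAT, 30.5% held GGGCGG, 5.59% held CACGTG and 0.974% held TCACNCCAC, so a match to either of the first motifs is common.

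Each value below is the log2 of a probe's processed signal relative to the 75th percentile of its array, so 0 is a signal equal to that percentile and a difference of 1 is 2-fold. The 75th percentile lay between 912.5 and 998.3 intensity units on the 6 arrays, and 53.4% to 62.3% of probes were well above background. All arrays came from 1 slide and 1 scan. The CO2/O2 rats lay at places 1 to 3 of that slide and the isoflurane rats at places 4 to 6, so place moved with the kind of anaesthesia. The precision of every comparison is limited by 3 rats a group, and p-values measure the spread between these rats only. Liver identity was checked on 8 hepatocyte markers, all above background, whose summed linear signal spanned 2790 to 2950 times the percentile after CO2/O2 and 2760 to 2960 times after isoflurane. In whole liver, fewer cells of a type and less RNA per cell cannot be told apart.

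None of the 8 lipogenic genes differed between isoflurane and CO2/O2 anaesthesia at an adjusted p of 0.05 (limma, Benjamini-Hochberg over 34637 probes). Over all named genes 0 of 10609, or 0.0%, passed that threshold, and over all probes 3, or 0.00866%. At an unadjusted p of 0.05 limma called 0 of the 8, against 7.58% of all genes (2.72% higher after isoflurane and 4.85% lower). The values of both groups overlapped for every one of the 8 genes, whereas they did not overlap for 14.2% of all genes. Differences, always isoflurane minus CO2/O2, were positive for 3 genes and negative for 5, with a median of -0.01 beside a median of -0.011 over all genes. What set these genes apart in size was the spread among rats given the same anaesthetic: their median within-group SD was 0.41 log2 units, beside 0.15 for all genes. That wide spread sets the intervals below, which for every gene but Acly and Acaca still hold changes of more than 1.5-fold.

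**Figure D1:**
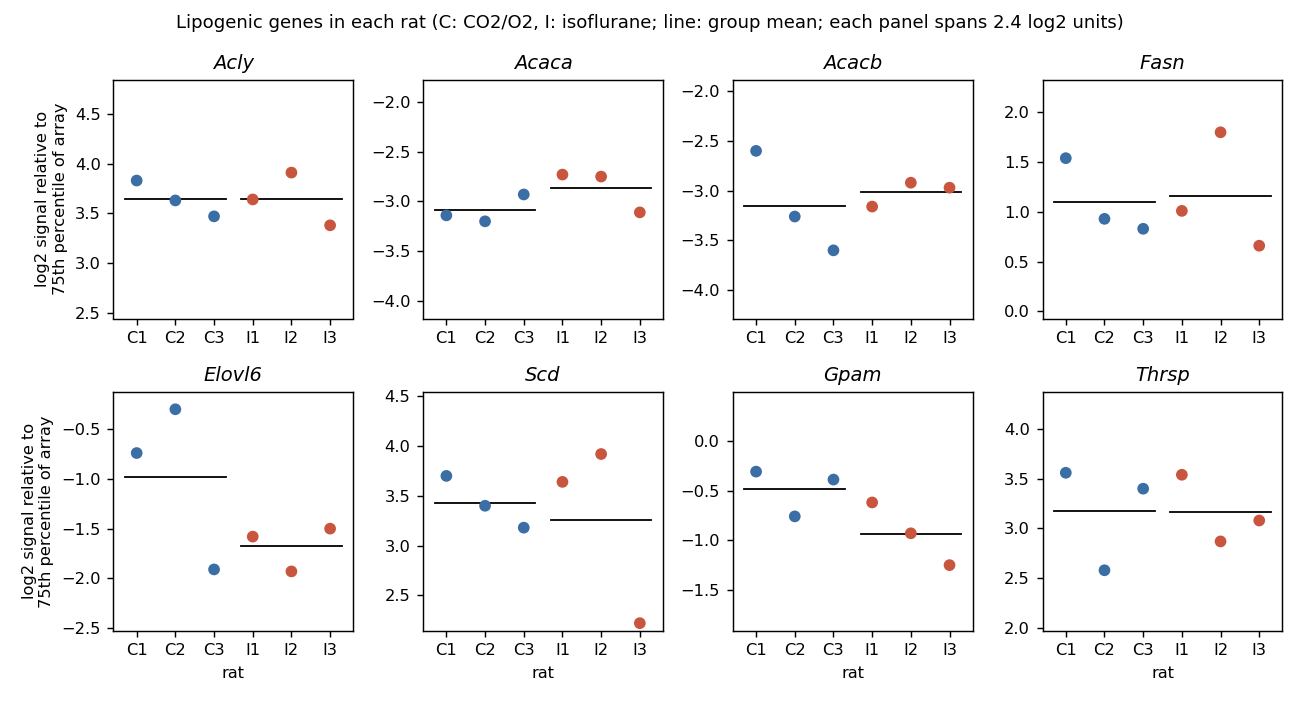
Signal of the 8 measured lipogenic genes in each rat, as log2 relative to the array's 75th percentile; points are rats (C, CO2/O2; I, isoflurane; replicates 1 to 3), lines are group means, and every panel spans the same range in log2 units. The points of both groups overlap in every panel; Acly and Fasn are highest in isoflurane rat 2 and Scd is lowest in isoflurane rat 3.

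Acly, the cytosolic enzyme that supplies acetyl-CoA, gave 3.83, 3.63 and 3.47 in CO2/O2 rats 1 to 3 and 3.64, 3.91 and 3.38 in isoflurane rats 1 to 3 (probe A_64_P085112). Both the highest and the lowest rat were in the isoflurane group, and the CO2/O2 values lay between them. The means were 3.64 ± 0.18 and 3.64 ± 0.26 (SD, n = 3), which leaves a fold of 1.0 with a 95% interval of 0.76 to 1.32 (limma adjusted p = 1.0). Its second probe gave a difference of 0.1 and followed the first at r = 0.96 over the 6 arrays. Of the 8 genes, Acly and Acaca had the smallest range over all rats, 1.43-fold for Acly.

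Acaca encodes the cytosolic acetyl-CoA carboxylase, whose malonyl-CoA feeds fatty acid synthesis. Signals of -3.14, -3.2 and -2.93 after CO2/O2 and -2.73, -2.75 and -3.11 after isoflurane were measured (probe A_64_P231828). Isoflurane rats 1 and 2 were above all CO2/O2 rats, while isoflurane rat 3 lay among them. The difference was 0.23 ± 0.14 (SE; adjusted p = 0.741 by limma), a fold of 1.17 with an interval of 0.929 to 1.48. The second Acaca probe gave only 0.061 and followed the first weakly, at r = 0.59, so the size of this difference depends on the probe. Acaca was also the one lipogenic gene whose difference kept its sign under every alternative processing tried.

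Acacb, the mitochondrial carboxylase whose malonyl-CoA restrains import of fatty acids for oxidation, gave -2.6, -3.26 and -3.6 after CO2/O2 and -3.16, -2.92 and -2.97 after isoflurane (probe A_42_P796452). The CO2/O2 rats spanned the whole range of the gene, with an SD of 0.51, and the 3 isoflurane rats lay within it, with an SD of 0.13. Its difference was 0.14 ± 0.25 (SE), or 1.1-fold with an interval of 0.72 to 1.68 (limma adjusted p = 0.928). A second Acacb probe was well above background on all 3 CO2/O2 arrays and on 0 isoflurane arrays; its measured means, -4.85 and -4.73, were close to background, and no fold is given.

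Fasn, the multi-domain enzyme that makes palmitate, had signals of 1.54, 0.93 and 0.83 after CO2/O2 and 1.01, 1.8 and 0.66 after isoflurane (probe A_44_P235978). One rat in each group, CO2/O2 rat 1 and isoflurane rat 2, stood above the other rats of its group. The range over all 6 rats was 2.22-fold, whereas the group means, 1.1 ± 0.39 and 1.16 ± 0.59 (SD, n = 3), differed by 1.04-fold, with an interval of 0.594 to 1.82 (limma adjusted p = 0.982). The second Fasn probe gave a difference of 0.067 and followed the first at r = 0.9985, so the 2 probes show the same rats as high and low.

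Elovl6, which lengthens palmitate to stearate, had the most negative mean difference of the 8 genes. It measured -0.74, -0.3 and -1.91 after CO2/O2 and -1.58, -1.93 and -1.5 after isoflurane (probe A_42_P836392). CO2/O2 rats 1 and 2 were above all isoflurane rats, but CO2/O2 rat 3 was at the level of the lowest isoflurane rat. The difference was -0.68 ± 0.41 (SE), a fold of 0.622 with an interval of 0.315 to 1.23 (limma adjusted p = 0.737). Leaving out 1 rat at a time moved this difference between -1.15, without CO2/O2 replicate 3, and -0.34, without CO2/O2 replicate 2. A second Elovl6 probe was well above background on 2 of the 3 CO2/O2 arrays and on 0 isoflurane arrays, and was not tested.

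Scd, the desaturase that makes oleate and palmitoleate, varied more within groups than 97.0% of genes tested. Signals were 3.7, 3.4 and 3.18 after CO2/O2 and 3.64, 3.92 and 2.22 after isoflurane (probe A_64_P085530). Isoflurane rat 2 was the highest of all and isoflurane rat 3 the lowest, 3.24-fold apart. The group means, 3.43 ± 0.26 and 3.26 ± 0.91 (SD, n = 3), differed by -0.17 ± 0.44 (SE), a fold of 0.89 with an interval of 0.423 to 1.87 (limma adjusted p = 0.953). Isoflurane rat 3 decided the sign, since the difference was 0.35 without it. A second Scd probe gave the same difference, -0.17, and followed the first at r = 0.9978.

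Gpam, the mitochondrial acyltransferase that commits acyl-CoA to glycerolipid synthesis, came nearest to a difference. Its single probe, A_44_P242969, gave -0.31, -0.76 and -0.39 after CO2/O2 and -0.62, -0.93 and -1.25 after isoflurane. Isoflurane rats 2 and 3 were below every CO2/O2 rat, while isoflurane rat 1 lay above CO2/O2 rat 2. The means were -0.49 ± 0.24 and -0.93 ± 0.32 (SD, n = 3), and the fold was 0.734 with an interval of 0.527 to 1.02. By limma the unadjusted p was 0.0626 and the adjusted p 0.671. Without 1 rat at a time the difference lay between -0.6 and -0.29, negative each time.

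Thrsp (Spot 14) is a small protein of lipogenic tissues whose transcription responds to thyroid hormone and carbohydrate. Its single probe gave 3.56, 2.58 and 3.4 after CO2/O2 and 3.54, 2.87 and 3.08 after isoflurane. The rats ranked differently here from Fasn and Scd: isoflurane rat 2, highest for both of those, was the lowest of its group for Thrsp. The means were 3.18 ± 0.52 and 3.16 ± 0.34 (SD, n = 3), a fold of 0.986 with an interval of 0.599 to 1.62 (limma adjusted p = 0.993).

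**Figure D2:**
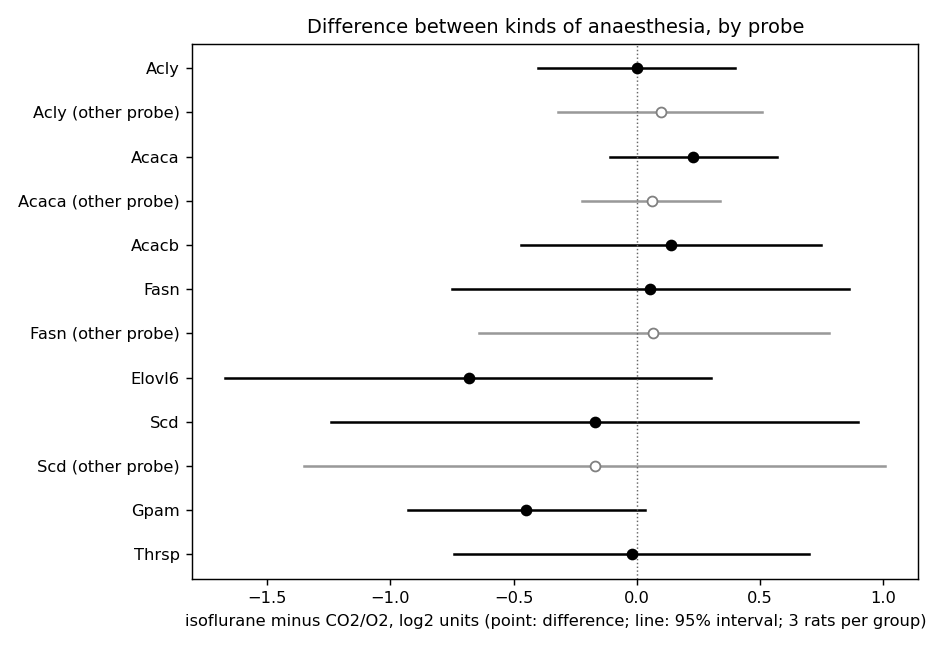
Difference between isoflurane and CO2/O2 for the 12 lipogenic probes well above background on all arrays, in log2 units; points are differences of means, lines 95% intervals from limma, filled points the brighter probe of a gene and open points its other probe. Every interval crosses 0, from the narrow ones of Acly and Acaca to the wide ones of Scd and Elovl6.

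A two-sided exact permutation test of each gene on its own gave p-values from 0.2, for Acaca and Gpam, to 1.0, for Acly, where 3 against 3 rats cannot give less than 0.1. The place of an array on the slide moves with the groups, and with place as a covariate the median difference of the 8 genes was 0.45 in place of -0.01, none of the 8 passing the threshold. With place in the fit, the Scd, Acly, Thrsp, Elovl6 and Gpam differences turned positive, at 1.28, 0.47, 0.44, 0.13 and 0.087 (limma adjusted p 0.955 to 0.991). The groups share no place, so this fit separates place from anaesthesia poorly, and its values are not corrected estimates. Fasn and Acacb turned negative with slide row as a block (-0.093 and -0.0092). The direction of these 7 genes is therefore not settled by these arrays. Acaca kept its sign, but its interval, 0.929 to 1.48-fold, holds changes in both directions, so its direction is not settled either.

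Within-group spread was wide for most of these genes and not for all. Scd, Elovl6, Fasn, Thrsp, Acacb and Gpam had pooled SDs of 0.67, 0.61, 0.5, 0.44, 0.37 and 0.28 log2 units, above 97.0%, 96.1%, 94.0%, 92.3%, 88.3% and 80.5% of 10609 genes. Acly and Acaca, with 0.22 and 0.18, lay above 72.0% and 61.6% of them. For comparison, the 90th percentile of all genes was 0.39. The group that varied more was not the same from gene to gene: Scd varied more after isoflurane (SD 0.91 against 0.26), and Elovl6 and Acacb more after CO2/O2 (0.83 against 0.23, and 0.51 against 0.13).

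Across the 6 rats the lipogenic genes did not vary as 1 block. Fasn, Acly and Scd put the rats in an identical order, from isoflurane rat 2 and CO2/O2 rat 1 at the top through isoflurane rat 1, CO2/O2 rat 2 and CO2/O2 rat 3 to isoflurane rat 3 at the bottom. Acacb, Thrsp, Gpam, Acaca and Elovl6 each followed another order. For Acaca this depended in part on the probe. Its other probe also differed from Fasn in order, but had isoflurane rat 2 (-2.91) and CO2/O2 rat 1 (-2.97) on top, as Fasn did. Over the 28 pairs of genes the median Pearson r was 0.2 and the range -0.79 to 0.96. An r above 0.8 was found for 2 pairs, 7.14% of them, beside 3.54% of the 56142906 pairs of 10597 genes, whose median r was 0.012.

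**Figure D3:**
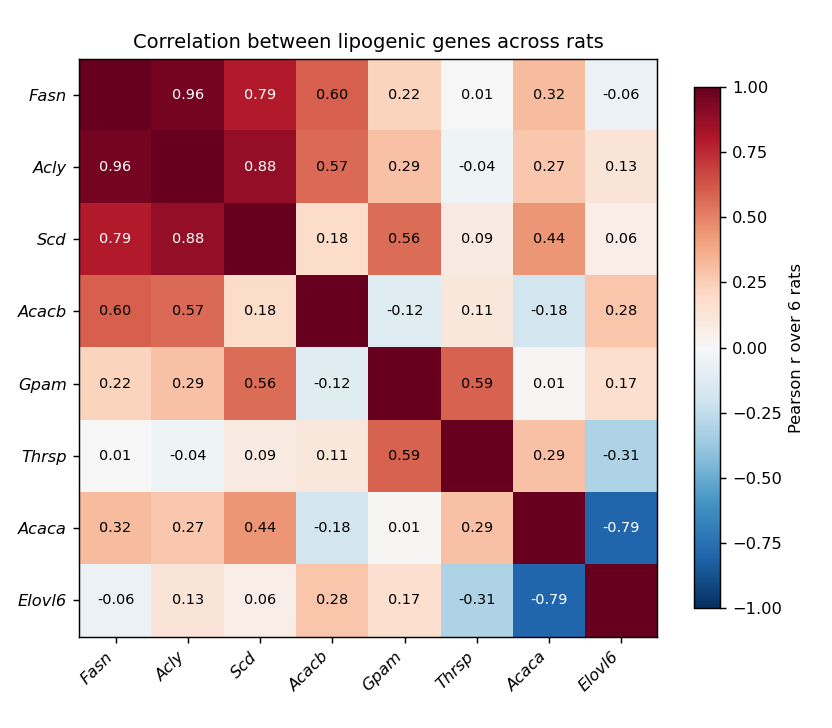
Pearson correlation over the 6 rats for each pair of the 8 lipogenic genes, from -1 (blue) to 1 (red), with r printed in each cell. Each gene is read by its tested probe of highest mean. Fasn, Acly and Scd form the block of high values at the upper left (0.79 to 0.96), while the pair of Acaca and Elovl6 is the most negative (-0.79).

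Fasn and Acly had the highest correlation, with r = 0.96 (exact permutation p = 0.00139, the smallest that 6 rats can give; 0.0389 after Benjamini-Hochberg over 28 pairs) and rho = 1.0 (exact permutation p = 0.00278; adjusted 0.0259). Without the 2 rats farthest from the Fasn median r was again 0.96. With group means removed it was 0.97, and within the slide row that held 4 arrays it was 0.93. Leaving out 1 rat at a time kept r between 0.95 and 0.98. Under quantile normalization, normexp background correction and median centring r was 0.94, 0.95 and 0.96, and the exact permutation p adjusted over the 28 pairs was 0.0972, 0.0778 and 0.0583.

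Scd and Acly correlated at r = 0.88 (exact permutation p = 0.00417, adjusted 0.0583) with rho = 1.0 (adjusted exact permutation p = 0.0259). Fasn and Scd correlated at r = 0.79 (exact permutation p = 0.0472, adjusted 0.441), also with rho = 1.0 (adjusted exact permutation p = 0.0259). For Fasn and Scd, r was 0.98 without the 2 rats farthest from the Fasn median, and 0.75 to 0.89 when any 1 rat was left out. Removing group means gave 0.89 and 0.81. The identical order of the rats held for all 3 pairs under quantile normalization, in the authors' value table and with the other probe of each gene; under normexp and under median centring it held for 1 of the 3 pairs, with a lowest rho of 0.94.

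The other relations did not pass the threshold. Acacb followed Fasn at r = 0.6 and Acly at r = 0.57 (exact permutation p = 0.239 and 0.236, adjusted 0.914 for both; rho = 0.6 for both, exact permutation p = 0.242, adjusted 0.846). Without the 2 rats farthest from the Fasn median the first became -0.28. Without the 2 rats farthest from the Acacb median, a different set, the second became 0.13. Leaving out 1 rat at a time kept r at 0.44 to 0.82 with Fasn and 0.4 to 0.89 with Acly. Thrsp and Gpam correlated at r = 0.59 and rho = 0.71 (exact permutation p = 0.217 and 0.136, adjusted 0.914 and 0.762), and at r = 0.89 without the 2 rats farthest from the Thrsp median. Acaca and Elovl6 ran opposite to each other, with r = -0.79 and rho = -0.83 (exact permutation p = 0.0694 and 0.0583, adjusted 0.486 and 0.408). These values rest on 1 Acaca probe, which the other Acaca probe followed only at r = 0.59. Thrsp was close to unrelated to Fasn (r = 0.0077, rho = 0.14; exact permutation p = 0.986 and 0.803, adjusted 0.986 and 0.977).

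The mean profile of the 8 genes, each first centred on its own mean, was 0.33, -0.02 and -0.14 in the CO2/O2 rats and 0.068, 0.1 and -0.33 in the isoflurane rats. The genes followed this profile unequally, and each is itself part of it, which raises its own r. Pearson r with it was 0.88, 0.86 and 0.79 for Acly, Scd and Fasn. For Gpam, Acacb, Elovl6, Thrsp and Acaca r was 0.64, 0.54, 0.32, 0.3 and 0.11. CO2/O2 rat 1, at the first place of the slide, was highest and isoflurane rat 3, at place 6, lowest. Of 10589 other genes, those most like it by Pearson r over the 6 arrays were Cd1d1 (0.9958), Adra1b (0.9952), Prkag2 (0.99), Atp2a3 (0.98) and Adipor2 (0.98). Cd1d1 presents lipid antigens, Atp2a3 is a calcium pump, Adra1b encodes an adrenergic receptor of hepatocytes, Prkag2 a regulatory subunit of the AMP-activated kinase, and Adipor2 a receptor for adiponectin. Among 91 tested genes of the pathway lists the nearest were Prkag2, Acss2 (0.97), Pklr (0.96), Nr1h3 (0.93) and Elovl5 (0.86). Acss2 makes acetyl-CoA from acetate, Pklr is the liver pyruvate kinase, Nr1h3 is the oxysterol receptor LXR alpha and Elovl5 elongates polyunsaturated fatty acids. The most opposite genes of those lists were Ppargc1b (-0.96), a coactivator of SREBP-1c, Slc2a2 (-0.94), the glucose transporter of hepatocytes, and Foxo1 (-0.94), a factor that insulin excludes from the nucleus. The best of so many genes will reach high r over 6 arrays, and these values are a ranking without a test.

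Some of the 11 tested fasting-side genes set the same rats apart and others did not; those named here were chosen after their values had been seen and are given with no test of the relation. Igfbp1, an insulin-repressed binding protein, gave 1.54, 4.09 and 4.38 after CO2/O2 and 2.83, 1.39 and 5.23 after isoflurane, with CO2/O2 rat 1 and isoflurane rat 2, the high rats for Fasn, lowest and isoflurane rat 3 highest. G6pc1, the glucose-releasing phosphatase, gave 5.88, 7.13 and 7.11 after CO2/O2 and 7.07, 5.62 and 7.18 after isoflurane, again lowest in those 2 rats. Fgf21, a fasting-induced hormone, was 0.75, 3.18 and 1.96 after CO2/O2 and 0.98, 2.48 and 4.75 after isoflurane, highest in isoflurane rat 3 but not low in isoflurane rat 2. Pdk4, which restrains pyruvate oxidation in fasting, ran the other way, with -1.17, -0.79 and -1.28 after CO2/O2 and -0.29 as the highest value, in isoflurane rat 2, and -1.9 as the lowest, in isoflurane rat 3. Cpt1a, which imports fatty acids for oxidation, and Angptl4, a lipoprotein lipase inhibitor, followed neither order; their correlations with the mean lipogenic profile were -0.11 and 0.27 over the 6 arrays, beside -0.9 for Igfbp1, -0.82 for Fgf21, -0.72 for G6pc1 and 0.53 for Pdk4. The pooled within-group SDs of Igfbp1, G6pc1 and Fgf21, 1.76, 0.8 and 1.59, exceeded those of the lipogenic genes. The differences of these 3 genes between kinds of anaesthesia, -0.18, -0.082 and 0.77, had limma adjusted p-values of 0.984, 0.984 and 0.891.

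**Figure D4:**
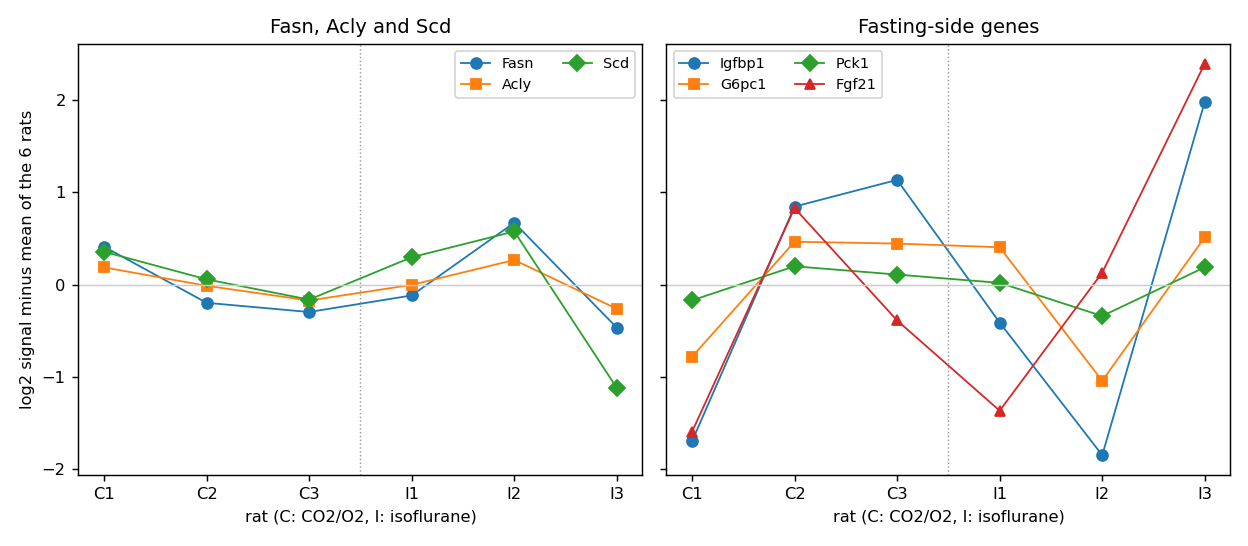
Signal of each gene in each rat minus its mean over the 6 rats, in log2 units (C, CO2/O2; I, isoflurane); lines only join the points of 1 gene, since rats have no order. CO2/O2 rat 1 and isoflurane rat 2 are high for Fasn, Acly and Scd on the left and low for Igfbp1, G6pc1 and Pck1 on the right. Fgf21, also on the right, is low in CO2/O2 rat 1 but not in isoflurane rat 2. The genes on the right were chosen from 11 tested fasting-side genes after their values had been seen. Among those not shown, Pdk4 ran the other way, and Cpt1a and Angptl4 followed neither order.

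The rest of the pathway was read from 6 lists of 101 genes, of which 91 were tested. None passed the adjusted threshold in either direction, as for the genes of the whole array; at an unadjusted p of 0.05 limma called 4 of 91, against 7.58% of all genes, and the groups did not overlap for 9, or 9.89%, against 14.2%. The median difference over the 91 genes was -0.032.

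Of 18 regulators of lipogenic transcription, 6 differences were positive and 12 negative, with a median of -0.017. Insig1, the sterol-regulated protein that holds the SREBP-SCAP complex in the endoplasmic reticulum, had the smallest p of the list. It gave 5.42, 5.52 and 5.38 after CO2/O2 and 4.51, 4.09 and 4.47 after isoflurane, with no overlap. The difference was -1.09 ± 0.13 (SE), which did not pass after adjustment (limma adjusted p = 0.324), and its 3 other tested probes gave -1.25 to -1.12. With slide place as a covariate it was -1.03. Insig2, its relative, and Nfyc, an NF-Y subunit, had differences of -0.28 ± 0.18 and -0.18 ± 0.11. The other tested Nfyc probe gave 0.0013.

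Carbon and NADPH supply, with 16 genes tested, had 4 positive and 12 negative differences and a median of -0.079. Gckr had a difference of -0.26 ± 0.12 (SE) and Taldo1, the transaldolase, one of -0.11 ± 0.079. With slide place as a covariate Gckr gave 0.043. For elongation, desaturation and activation, 7 of 14 genes were positive and 7 negative, with a median of -0.0067, and Elovl3 was not above background on any array. Acsl5, which activates fatty acids to acyl-CoA, gave 5.02, 4.7 and 4.76 after CO2/O2 and 4.22, 4.21 and 4.16 after isoflurane, without overlap (-0.63 ± 0.11, SE; limma adjusted p = 0.46). Its relatives Acsl4 and Acsl1 gave -0.34 ± 0.23 and -0.082 ± 0.091, with overlap. Acsl4 gave -0.079 without isoflurane replicate 2 and -0.0036 with slide row as a block, and Acsl5 gave -0.39 with slide place as a covariate.

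Glycerolipid assembly and storage gave 8 positive and 9 negative differences over 17 genes, with a median of -0.031. Lpin2, a phosphatidate phosphatase, measured -0.6, -0.81 and -0.64 after CO2/O2 and -0.21, -0.29 and 0.78 after isoflurane, with isoflurane rat 3 far above the rest (0.77 ± 0.29, SE; limma adjusted p = 0.644). The Lpin2 difference was 0.43 without isoflurane replicate 3 and 0.056 with slide place as a covariate. Dgat1, which adds the last acyl chain of triglyceride, and Plin5, a lipid droplet coat protein, had differences of 0.15 ± 0.082 and -0.27 ± 0.15. Enzyme activation and insulin or AMPK control had 9 positive and 6 negative differences over 15 genes and a median of 0.036; Akt2, Irs2 and Irs1, which relay the insulin signal, gave -0.23 ± 0.11, 0.2 ± 0.12 and 0.2 ± 0.14, each with its sign turned when slide place was a covariate (0.02, -0.079 and -0.083).

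Fasting-side genes, the counterpart of lipogenesis, gave 4 positive and 7 negative differences over 11 genes, with a median of -0.084 and the widest median SD of the 6 lists, 0.28. Ppara, the receptor that drives fatty acid oxidation in fasting, gave 0.85, 1.18 and 1.6 after CO2/O2 and 1.75, 1.8 and 1.97 after isoflurane (0.63 ± 0.2, SE; limma adjusted p = 0.597). Although its groups did not overlap, the difference was -0.1 with slide place as a covariate. Angptl4 gave -0.45 ± 0.25 (SE).

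**Figure D5:**
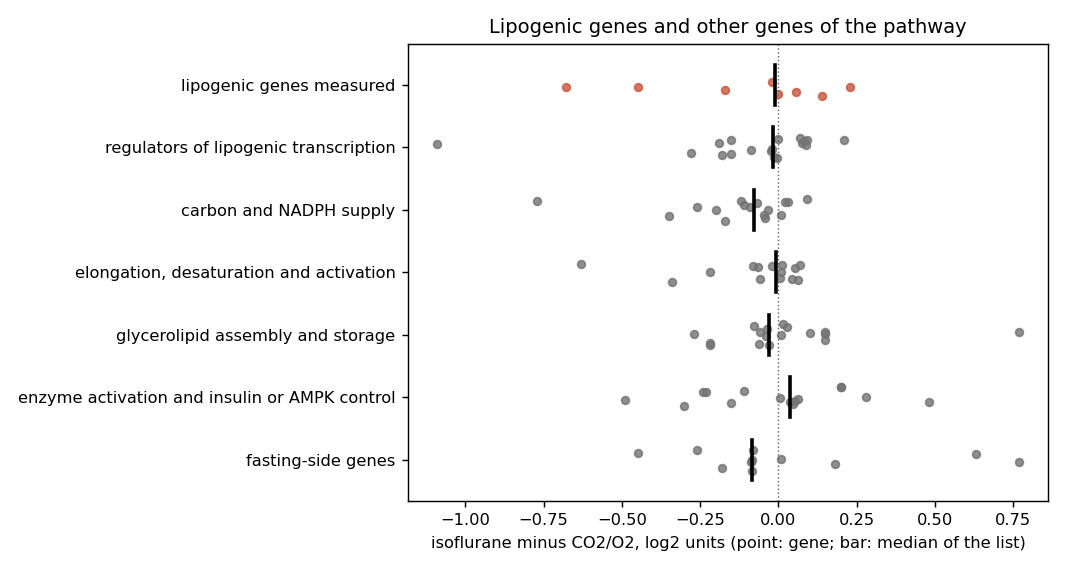
Difference between isoflurane and CO2/O2 in log2 units for the 8 lipogenic genes and for the tested genes of 6 other lists of the pathway; points are genes (jittered vertically) and bars are list medians. All medians lie between -0.084 and 0.036, and the points farthest out are Insig1 (-1.09) on the left and Lpin2 and Fgf21 (both 0.77) on the right.

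Markers of other cell types were read the same way. The adipocyte markers Adipoq and Lep were not above background on any array; Fabp4 gave a difference of 0.86 near background and Cfd -0.43, and the summed linear signal of the 3 tested adipocyte markers was 15.1 to 23.7 after CO2/O2 and 15.5 to 17.5 after isoflurane. All 10 Kupffer cell markers tested had negative differences (median -0.35; Vsig4 -0.62, Cd5l -0.4), with summed signals of 199 to 245 after CO2/O2 and 160 to 189 after isoflurane. So did all 7 lymphocyte markers (median -0.39; Gzmb -0.77, Cd8a -0.54; summed signals 5.06 to 5.83 and 4.1 to 4.83). Of 5 erythroid markers 4 had negative differences (median -0.37; Slc4a1 -0.74, Hbb -0.45; summed signals 140 to 190 and 101 to 136). None of these genes passed the adjusted threshold by limma. Over all genes 5614 of 10609 differences were negative. With slide place as a covariate the named differences were nearer to 0 or turned: Vsig4 -0.31, Cd5l -0.19, Cd8a -0.1, Gzmb 0.01, Slc4a1 -0.56 and Hbb 0.12. Place and group are poorly separated in that fit. Medians were near 0 for 8 hepatocyte markers (0.028; Hnf4a 0.38, Cps1 -0.28), 4 endothelial markers (-0.069; Cdh5 0.18, Pecam1 -0.13) and 5 stellate cell markers (0.01; Pdgfrb -0.31, Rgs5 0.21). Other tested probes gave only 0.035 to 0.19 for Hnf4a and 0.036 for Cdh5. The other tested probe of the Kupffer cell marker Csf1r gave 0.027, so all 10 were negative only by each gene's brightest probe. For 4 cholangiocyte markers the median was -0.18 (Spp1 -1.19, Krt7 -0.33), and Spp1 gave -0.65 without isoflurane replicate 3 and 0.47 with slide place as a covariate. Isoflurane rat 3, the lowest rat for the mean lipogenic profile, was also the lowest for the mean of the erythroid, lymphocyte, cholangiocyte and Kupffer cell markers (-0.65, -0.59, -0.39 and -0.22 from their own mean over the 6 rats), and CO2/O2 rat 1, the highest, was highest for all 4 (0.39, 0.28, 0.3 and 0.36). Isoflurane rat 3 was lowest also for the stellate cell and hepatocyte markers (-0.19 and -0.069), but not for the endothelial and adipocyte markers (0.012 and -0.06). It was lowest for the lists of regulators, carbon and NADPH supply, and elongation (-0.061, -0.19 and -0.2). For glycerolipid assembly and fasting-side genes it was highest (0.2 and 0.48). The part of other cell types in the lipogenic values was not tested.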

How the data were processed

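Liver RNA of 6 rats, 3 killed under isoflurane and 3 under CO2/O2, was measured on 1 array each, from 0.2 ug of Cy3-labelled RNA. The authors deposited scanner output with processed spot intensity, made with Agilent Feature Extraction 10.7 per the submitters' processing notes, and a value table whose entries are, tested on the files, the processed intensity as a linear ratio to 1 number per array close to its 75th percentile. Intensities were divided here by the 75th percentile of the array's 61657 non-control probes and log2-transformed; 177 outlier-marked spots were left out, and 0 spots were saturated. Probes entered the test when either group had them well above background in each of its 3 rats, which kept 34637 probes of all and 13 of the 14 lipogenic probes. limma 3.58.1 (R 4.3.3; lmFit and eBayes, no covariate) compared the groups, with Benjamini-Hochberg adjustment over all tested probes and a threshold of 0.05. On simulated data for this comparison, run on 34637 probes, 53.1% of 2-fold and 89.5% of 4-fold changes were recovered. Changes were planted only in probes well above background on all 6 arrays. Each simulated dataset held many changed probes, whereas 3 probes passed in the real comparison. The adjusted threshold is stricter where fewer probes change, so these shares can overstate recovery here. The simulated spread was drawn from that fitted over all tested probes. The lipogenic genes varied more (median SD 0.41 against 0.15 for all genes), so these shares do not hold for them.

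Probes were named by accession through a RefSeq table of assembly GRCr8, which matched 27460 of the 61657 probes, each to 1 gene; the arrays' own annotation names build rn4, and none of its coordinates are used. A gene is represented by its tested probe of highest mean. Named genes were all lipogenic genes, the 3 genes of each pathway list and the 2 of each marker list with the smallest p, and the genes most and least like the mean profile; the lipogenic genes and the lists were chosen with earlier results of these data known. Some genes that this rule names are not reported here. Same-numbered rats deviated together only weakly and were treated as unpaired. Alternatives were another background correction (normexp on median signals), quantile or median scaling, other filters and probe choices, the deposited table, slide row, slide place, a replicate block, and leaving out each rat.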

Additional observations from a re-analysis of the deposited data

How the results depend on the processing

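None of the 8 lipogenic genes passed the threshold of 0.05 under any alternative; the smallest adjusted p was 0.396 by limma (Elovl6, without CO2/O2 replicate 3). The 3 probes that passed over the whole array became 5 with normexp, 5 with a trended and robust variance, 1 without the filter on dim probes, 0 with slide place, and 1 to 13 in the fits that dropped 1 rat (13 on dropping CO2/O2 replicate 3, and 1 on dropping CO2/O2 replicate 1 or the third isoflurane rat); 2616 probes had an unadjusted p under 0.05. Same-numbered rats deviated together at r = 0.11, 0.021 and 0.06, against -0.094 to 0.037 for rats of different number. Any pairing by number is thus weak but not excluded. With a replicate block 0 probes and 0 lipogenic genes passed. The median difference of the 8 genes, -0.01, was 0.45 with slide place and -0.2 to 0.13 without 1 rat. Acly, at -0.00015, gave 0.048 as a probe mean, 0.0057 with normexp, 0.0082 with quantile scaling and 0.1 by its other probe, and Fasn gave -0.0031 with median centring. With slide place the sign turned for Scd (1.28), Acly (0.47), Thrsp (0.44), Elovl6 (0.13), Gpam (0.087), Gckr (0.043), Acsl1 (0.064), Irs1 (-0.083), Irs2 (-0.079), Akt2 (0.02), Ppara (-0.1), Cps1 (0.15), Cfd (0.086), Gzmb (0.01), Hbb (0.12), Pecam1 (0.077), Pdgfrb (0.069), Rgs5 (-0.49) and Spp1 (0.47); with slide row as a block, for Fasn (-0.093), Acacb (-0.0092), Scd (0.21), Thrsp (0.35), Acsl1 (0.036), Cps1 (0.1) and Pecam1 (0.063). The groups share no place on the slide, so the fit with place separates it poorly from anaesthesia. The cause of the turned signs was not tested. Without 1 rat, Fasn spanned -0.27 to 0.31, Acacb -0.088 to 0.41, Scd -0.5 to 0.35, Acly -0.13 to 0.13 and Thrsp -0.32 to 0.17. Of 40 named genes 19 kept their sign under all alternatives. The correlation of Fasn and Acly was 0.95 (adjusted exact permutation p = 0.0778) with normexp, 0.94 (0.0972) with quantile scaling, 0.96 (0.0583) with median centring and 0.95 to 0.98 without 1 rat (0.117 to 0.233), where 5 arrays allow fewer pairings; that of Acly and Scd, 0.88 (0.0583), was 0.89 (0.0389) with quantile scaling, 0.85 (0.156) with normexp, 0.88 (0.175) as probe means, 0.87 (0.331) by the other probes and 0.86 to 0.94 without 1 rat (0.117 to 0.642). The mean r over the 28 pairs, 0.23, was 0.12 to 0.32 without 1 rat.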
